A study of Homo sapiens with 4 samples.

Results

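The 9 genes described here, CDKN1A, MDM2, GADD45A, BTG2, GDF15, FAS, SESN1, TP53I3 and ZMAT3, are targets of the transcription factor p53 that are commonly used to read out its response to DNA damage. They were chosen by gene symbol, all 9 symbols were found among the 36601 genes of the deposited matrices, and all 9 had UMIs in all 4 libraries. The cells were BEAS-2B, a human bronchial epithelial line, irradiated in culture flasks with Cs-137 gamma rays and collected after a further 30 min of culture. Whether the control was handled alongside and kept for the same time is not given in the labels. The groups were an unirradiated control, 10 mGy, 100 mGy and 1 Gy, with 1 single-cell library each. All 4 groups share the same line, which was immortalized with a hybrid virus that carries a large T antigen, a protein known to bind p53. Dose cannot be told apart from library, cells are not replicates, and no test between doses was made. Where 4 values follow each other they are in the order control, 10 mGy, 100 mGy and 1 Gy, and where 3 do they are for the rising doses.

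When DNA is broken, the kinases ATM and ATR mark p53, which escapes its ubiquitin ligase MDM2, accumulates and switches on genes for cell cycle arrest, repair, metabolism and cell death. MDM2 is itself a target, so the response feeds back on p53. In single cells this feedback is known to give pulses of p53 that are not in step between cells, and low p53 activity from damage that arises during normal growth is found in unirradiated cultures too.

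The libraries held 11111 to 21514 barcodes and between 211752280 and 285806026 unique molecular identifiers (UMIs), each of which stands for 1 captured mRNA molecule. Low-UMI barcodes, whose UMI count times 3 was below the median of their library, were 19.6%, 41.4%, 27.4% and 25.4% of barcodes. Any pair of libraries shared between 76 and 134 barcodes, at most 0.864% of a library. The keratins KRT8, KRT18 and KRT7 lay between 229 and 682 CPM (counts of a gene per 1000000 UMIs) in the 4 libraries. The epithelial markers EPCAM (0.837 to 1.15 CPM) and CDH1 (0.0156 to 0.0317 CPM) were near 0, and the mesenchymal gene VIM was at 2422 CPM or more. Of the 8 markers listed for the line, 5 reached 10 CPM on average, and levels of KRT19 and CDH2, also listed, are not given here. Of 10 markers of blood, vessel and liver cells, CD3E and MS4A1 had no UMI in any library, and CD68 (6.84 to 10.6 CPM) was the only one above 1 CPM.

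The deposited matrices hold no coordinates, so positions are given from GRCh38. The 300-base windows around RefSeq transcription starts (GRCh38.p14, 250 bases before and 50 after the start) were searched for the p53 response element, which is 2 decamers of a known consensus in tandem. A match kept the core CNNG in both decamers, had no spacer and differed from the consensus at 3 or fewer of its 20 bases, a limit chosen after the windows were scanned. The consensus reads the same on both strands, so 1 scan covers both. Such matches were found in 1.12% of all 35116 windows and for 1.37% of 27305 genes. The table held 16 windows for 8 of the 9 genes, and 4 of them had a match. These are shown with the match in capitals, 5′ to 3′ on the strand of the gene, because they are the stretches closest to a p53 binding site in these windows.
MDM2, chr12:68808883-68808982, plus strand: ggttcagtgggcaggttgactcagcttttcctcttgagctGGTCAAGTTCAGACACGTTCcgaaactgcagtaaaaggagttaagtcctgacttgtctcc
FAS, chr10:88991304-88991333, plus strand: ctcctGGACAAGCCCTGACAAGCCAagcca
SESN1, chr6:109009013-109009042, minus strand: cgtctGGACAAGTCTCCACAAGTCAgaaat
GDF15, chr19:18386181-18386207, plus strand: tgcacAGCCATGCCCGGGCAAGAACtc
The matches of MDM2 and FAS had 2 mismatches and those of SESN1 and GDF15 had 3. By GENCODE 29 the MDM2 and SESN1 matches lie in introns. The MDM2 match falls in 2 windows, 94 and 101 bases before their RefSeq starts, and the SESN1 match lies 49 bases before the RefSeq start of its window. The FAS and GDF15 matches lie in exons, 122 bases before and 28 bases after such a start. The best stretch had 4 mismatches for ZMAT3, 5 for CDKN1A, 9 for BTG2 and 10 for TP53I3, which says only that no closer match lies in these windows.

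The levels of the 9 genes at 1 Gy lay close to the control, as did those of most genes, and the departures at 10 mGy and 100 mGy went in both directions. The level of a gene is its share of the UMIs of a barcode in CPM, averaged over all deposited barcodes of a library. Over 1.2-fold from the control, 2 of the 9 genes were higher and 5 lower at 10 mGy, where 16.1% of the 8513 genes of at least 10 CPM were higher and 54.2% lower. At 100 mGy the counts were again 2 higher and 5 lower, against 13.9% and 58.7% of all genes. At 1 Gy 0 were higher and 1, GDF15, was lower, against 1.61% and 1.3% of all genes. At 1.5-fold, 2 were higher and 3 lower at 10 mGy (5.52% and 27.6% of all genes), 0 and 3 at 100 mGy (5.05% and 33.3%), and 0 in either direction at 1 Gy (0.0235% and 0.0117%). Of the 9 genes, 5 reached 10 CPM on average, and BTG2, GDF15, FAS and SESN1 did not. The median log2 ratio of the 9 genes was -0.46, -0.38 and -0.12, beside -0.32, -0.38 and 0.00 for all genes of at least 10 CPM. At 1 Gy 6 of the 9 genes lay below the median of all genes of at least 10 CPM. The 5 members at or above that level had medians of 0.07, -0.19 and 0.02, with 1 higher and 2 lower at each low dose and 0 past 1.2-fold at 1 Gy. With libraries scaled so that the median ratio of all genes is 1, the medians were -0.14, 0.00 and -0.13, and the counts became 4 higher and 3 lower at 10 mGy, 3 and 3 at 100 mGy and 0 and 1 at 1 Gy. Under that scaling 2665 of the 8513 genes were higher and 2410 lower at 10 mGy, 2683 and 2449 at 100 mGy, and 129 and 118 at 1 Gy.

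**Figure D1:**
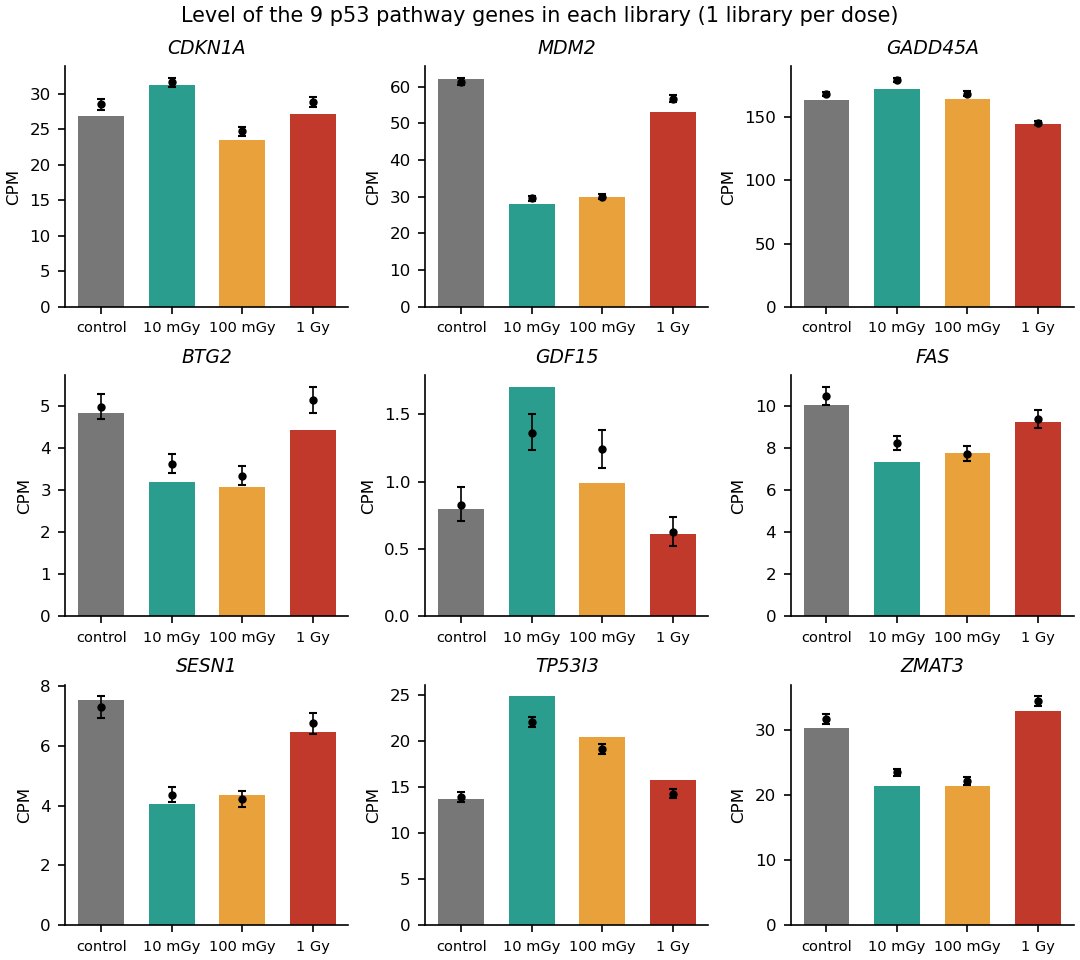
Level of each of the 9 genes in CPM (vertical axis, starting at 0) in the 4 libraries (horizontal axis, 1 library per dose). Bars are the mean over all barcodes, and black points are the pooled level with its exact 95% Poisson interval for counting error; MDM2 stands at 62.0 CPM in the control and 27.98 CPM at 10 mGy, and CDKN1A stays between 23.5 and 31.2 CPM.

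MDM2 (chromosome 12, 68808176 to 68850686), the ubiquitin ligase that degrades p53, showed the lowest ratio to the control of the 9 genes at both low doses. Its level was 62.0 CPM in the control, 27.98 CPM at 10 mGy, 29.9 CPM at 100 mGy and 52.9 CPM at 1 Gy. The control and 1 Gy were thus high and the low doses low, and the counting intervals of 10 mGy and 100 mGy overlapped while the others did not. Pooled over all UMIs, the ratio to the control was 0.482 (95% interval 0.469 to 0.496, counting error only) at 10 mGy, 0.488 (0.475 to 0.503) at 100 mGy and 0.924 (0.901 to 0.947) at 1 Gy. On the log2 scale the main ratios were -1.15, -1.05 and -0.23. In low-UMI barcodes MDM2 stood at 64.4 CPM in the control and 44.5 CPM at 1 Gy, and without them at 61.4 and 55.8 CPM. MDM2 is a long gene, with 13284 exonic bases, and long genes were lower at the low doses: over 8505 genes, the ratio correlated with exonic length with a Spearman's rho of -0.569, -0.575 and -0.118, across genes, which are not replicates. With genes ranked by length and cut into 10 equal groups, the median log2 ratio of the 851 genes in the group of MDM2 was -0.74, -0.81 and -0.03, and the part of length in the MDM2 ratio was not tested.

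CDKN1A (chromosome 6, 36676460 to 36687339), which codes for the cyclin-dependent kinase inhibitor p21, is the classical arrest gene of p53. Its level was 26.8 CPM in the control, 31.2 CPM at 10 mGy, 23.5 CPM at 100 mGy and 27.2 CPM at 1 Gy. None of these ratios passed 1.2-fold, and the control and 1 Gy could not be told apart by their counting intervals. The log2 ratios were 0.22, -0.19 and 0.02, and with median ratio scaling they were 0.54, 0.19 and 0.01. Under that scaling CDKN1A counts as over 1.2-fold higher at 10 mGy, and the direction at 100 mGy depends on the scaling.

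GADD45A (chromosome 1, 67685061 to 67688338), a stress-induced protein that takes part in growth arrest and DNA repair, was measured at 164 CPM in the control, 173 CPM at 10 mGy, 164 CPM at 100 mGy and 145 CPM at 1 Gy. The 1 Gy library was the lowest, with a pooled ratio of 0.864 (0.851 to 0.877), and a log2 ratio of -0.18 that lay at percentile 5.32 of all genes at that dose. The control and 100 mGy did not differ beyond counting error. With median ratio scaling its log2 ratios were 0.39, 0.38 and -0.19, so it counts as over 1.2-fold higher at both low doses under that scaling.

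BTG2 (chromosome 1, 203305491 to 203309602), an antiproliferative protein that acts through mRNA deadenylation, was at 4.83 CPM in the control, 3.19 CPM at 10 mGy, 3.07 CPM at 100 mGy and 4.45 CPM at 1 Gy. The low doses were lower than the control and 1 Gy, with log2 ratios of -0.60, -0.66 and -0.12. The pooled ratio was 0.730 (0.669 to 0.796) at 10 mGy, 0.671 (0.612 to 0.736) at 100 mGy and 1.03 (0.949 to 1.13) at 1 Gy, so the direction at 1 Gy depends on how barcodes are weighted. Genes of like length gave median log2 ratios of 0.05, 0.01 and 0.02.

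Among the genes linked to cell death, TP53I3 was higher and FAS lower at the low doses. TP53I3 (chromosome 2, 24077433 to 24085861), a quinone reductase whose product generates reactive oxygen species, was at 13.7 CPM in the control, 24.9 CPM at 10 mGy, 20.5 CPM at 100 mGy and 15.7 CPM at 1 Gy. It was highest at 10 mGy and next at 100 mGy, and the pooled counting intervals of 1 Gy and the control overlapped. The pooled ratios were 1.58 (1.52 to 1.66), 1.37 (1.31 to 1.44) and 1.03 (0.976 to 1.08). In low-UMI barcodes TP53I3 stood at 28.8 CPM at 10 mGy and 10.8 CPM in the control, and without them the ratio at 10 mGy was 1.53 in place of 1.81. FAS (chromosome 10, 88990582 to 89015785), the death receptor, was at 10.1 CPM in the control, 7.35 CPM at 10 mGy, 7.76 CPM at 100 mGy and 9.25 CPM at 1 Gy. With median ratio scaling the log2 ratios of FAS were -0.14, 0.00 and -0.13, and it no longer passed 1.2-fold at any dose.

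GDF15 (chromosome 19, 18374731 to 18389176), a secreted stress cytokine, was the rarest of the 9 transcripts, with 132 to 390 UMIs in a library. Its level was 0.793 CPM in the control, 1.71 CPM at 10 mGy, 0.988 CPM at 100 mGy and 0.613 CPM at 1 Gy. The 2 low doses lay above the control, and 1 Gy below it, with pooled ratios of 1.65 (1.38 to 1.98), 1.499 (1.24 to 1.82) and 0.754 (0.597 to 0.9499). The counting intervals of the control and 1 Gy levels overlapped, as did those of 10 mGy and 100 mGy. At 10 mGy the level was 2.06 CPM in low-UMI barcodes and 1.46 CPM in the rest, and in the control it was 0.316 CPM and 0.909 CPM, but the values in low-UMI barcodes rest on 29 of 8911 barcodes with a GDF15 UMI at 10 mGy and 3 of 2174 in the control. All its UMIs lay in 66, 192, 106 and 58 barcodes. Many of them thus shared a barcode, and the intervals of this gene, which treat each UMI as separate, are too narrow for the spread between cells.

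SESN1 and ZMAT3 were both lower at the low doses and within 1.2-fold of the control at 1 Gy. The pooled counting intervals of the control and 1 Gy overlapped for SESN1 but not for ZMAT3, which was highest at 1 Gy. SESN1 (chromosome 6, 108986437 to 109094819), a sestrin that restrains the growth kinase mTORC1, was at 7.54 CPM in the control, 4.07 CPM at 10 mGy, 4.37 CPM at 100 mGy and 6.46 CPM at 1 Gy. ZMAT3 (chromosome 3, 179017223 to 179072279), a zinc finger protein that binds RNA and acts on splicing, was at 30.3 CPM in the control, 21.4 CPM at 10 mGy, 21.4 CPM at 100 mGy and 32.8 CPM at 1 Gy. The SESN1 log2 ratios of -0.89, -0.79 and -0.22 lay below the -0.32, -0.38 and 0.01 of genes of like length. The ZMAT3 log2 ratios of -0.50, -0.50 and 0.12 lay above the -0.58, -0.65 and -0.02 of genes of its length, and ZMAT3 no longer passed 1.2-fold with median ratio scaling.

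**Figure D2:**
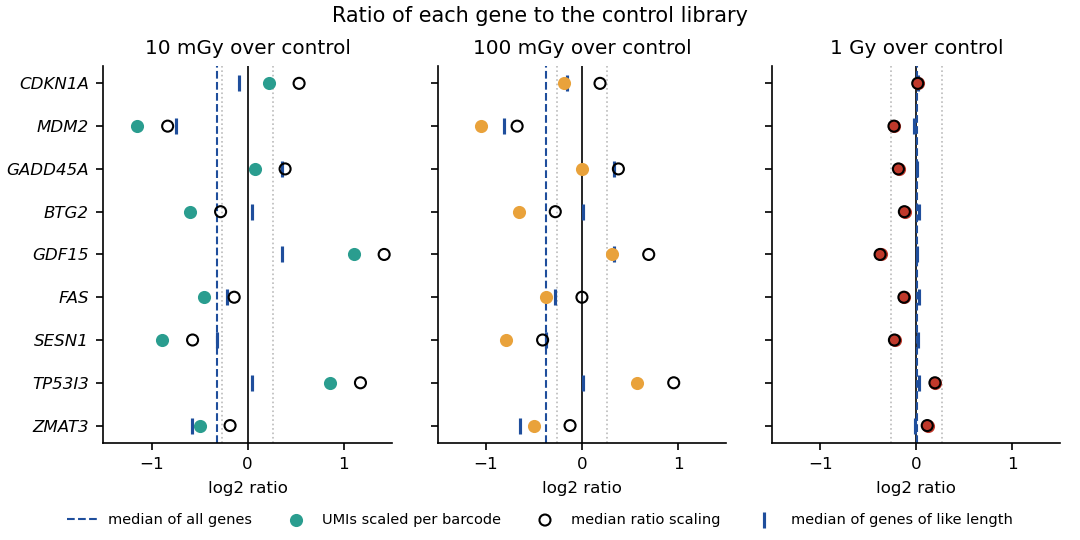
Log2 ratio to the control library (horizontal axis) of each of the 9 genes (rows) at 10 mGy, 100 mGy and 1 Gy. Filled points are the main ratios, open points those with median ratio scaling, short blue ticks the median of genes of like length, the dashed line the median of all genes, and dotted lines 1.2-fold; at 1 Gy the points lie between -0.37 and 0.20, while at 10 mGy they spread from -1.15 for MDM2 to 1.10 for GDF15.

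Shares of cells in which a gene was detected were compared at equal depth. For this, cells of at least 5000 UMIs were thinned at random to 5000 UMIs each, which left 9060, 12561, 14271 and 11530 cells. At that depth MDM2 had a UMI in 23.1%, 13.0%, 12.2% and 22.0% of cells. CDKN1A had a UMI in 9.48%, 12.3%, 9.25% and 10.3% of cells, so 10 mGy was the highest, and the binomial interval of the control (8.89% to 10.1%) overlapped those of 100 mGy (8.78% to 9.74%) and 1 Gy (9.79% to 10.9%). GADD45A was found in 54.8%, 56.2%, 53.6% and 49.7% of cells, lowest at 1 Gy. TP53I3 was found in 6.67%, 9.99%, 8.67% and 6.401% of cells, and ZMAT3 in 14.2%, 11.7%, 10.5% and 15.6%. BTG2, FAS and SESN1 stayed between 1.60% and 4.83% in all libraries. GDF15 was the least often seen, in 21 (0.232%), 53 (0.422%), 57 (0.399%) and 19 (0.165%) cells. Over all barcodes without thinning, the shares for MDM2 were 55.7%, 26.2%, 24.9% and 43.3%, and for CDKN1A 28.1%, 24.4%, 17.7% and 22.9%, so that 10 mGy lay below the control there and above it at equal depth. The samples hold a single cell line, so the share expected from free RNA in cells that lack these genes was not measured.

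The transcripts of CDKN1A and MDM2 were spread over the cells less evenly than counting alone gives. For thinned counts without any difference between cells, the variance over the mean is 1. It was 5.73, 3.01, 3.89 and 4.49 for CDKN1A, and 3.43, 1.961, 2.01 and 2.36 for MDM2. Among 6330 to 6500 genes of 10 to 100 CPM in a library, CDKN1A ranked 1 in all 4 libraries and MDM2 ranked 2, 2, 3 and 3, and the median of these genes in the control was 1.01. GDF15 stood at 4.14, 3.23, 3.40 and 4.55 in spite of its low level. GADD45A lay between 1.22 and 1.30, and BTG2, FAS, SESN1, TP53I3 and ZMAT3 between 0.988 and 1.247. Single cells held many copies, and the highest CDKN1A count in a thinned cell was 36, 27, 23 and 37 UMIs.

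The same cells tended to hold several of the transcripts. Correlations between genes over the cells of a library are given as a description, as Pearson's r of the log of thinned UMIs plus 1, and the cells of a library share its preparation. CDKN1A and MDM2 correlated with an r of 0.21, 0.15, 0.19 and 0.17. CDKN1A and GDF15 had the highest r of the 36 pairs in every library, at 0.31, 0.25, 0.35 and 0.26, and MDM2 and GDF15 had 0.21, 0.21, 0.23 and 0.20. The r of CDKN1A with TP53I3 was 0.13, 0.08, 0.11 and 0.03, lowest at 1 Gy, and that with BTG2 was 0.12, 0.10, 0.11 and 0.07. Over all 36 pairs the median r was 0.0466, 0.0302, 0.0396 and 0.0257, and 0, 2, 4 and 1 pairs were negative. For comparison, CDKN1A had a median r near 0 (-0.0025 to -0.0018) with the 3477 genes of at least 50 CPM, and no r above 0.0721, which was its r with GADD45A, a gene of the 9, in the control. MDM2, GDF15, TP53I3 and BTG2 averaged below 50 CPM, so they and other genes of such levels are not in that comparison. Whether other genes of like level reach such an r with CDKN1A was not tested. The pairs of FAS, SESN1 and ZMAT3 with each other stayed between -0.01 and 0.02.

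Counts of cells that held both transcripts give the joint detection of a pair with its counting error. In the control 239 cells had UMIs of both CDKN1A and MDM2, where independence gives 199, a ratio of 1.204 (1.06 to 1.37). The ratio was 1.23 (1.08 to 1.39) at 10 mGy, 1.36 (1.18 to 1.55) at 100 mGy and 1.16 (1.03 to 1.30) at 1 Gy. For CDKN1A and GDF15 it was 7.53 (4.22 to 12.4) in the control, 3.67 (2.35 to 5.47) at 10 mGy, 7.21 (5.10 to 9.89) at 100 mGy and 7.13 (3.90 to 11.96) at 1 Gy, from 14 to 38 cells. Joint detection lay above independence, beyond its interval, in 11, 10, 13 and 10 of the 36 pairs, and below it in 0 pairs of any library. Of the 36231328 pairs among the 8513 genes of at least 10 CPM, 0.653%, 0.921%, 1.18% and 0.65% lay above and 0.562%, 0.631%, 0.648% and 0.578% below. Of those with an expected count within the range of the 36 pairs, 0.767%, 1.14%, 1.44% and 0.789% lay above. BTG2, GDF15, FAS and SESN1 lie below 10 CPM, so this background holds no genes as rare as those in the pairs with them. The 36 pairs come from 9 genes, so they share genes and are not independent of each other. The intervals of the 4 libraries overlapped for both pairs, so no order by dose could be read.

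**Figure D3:**
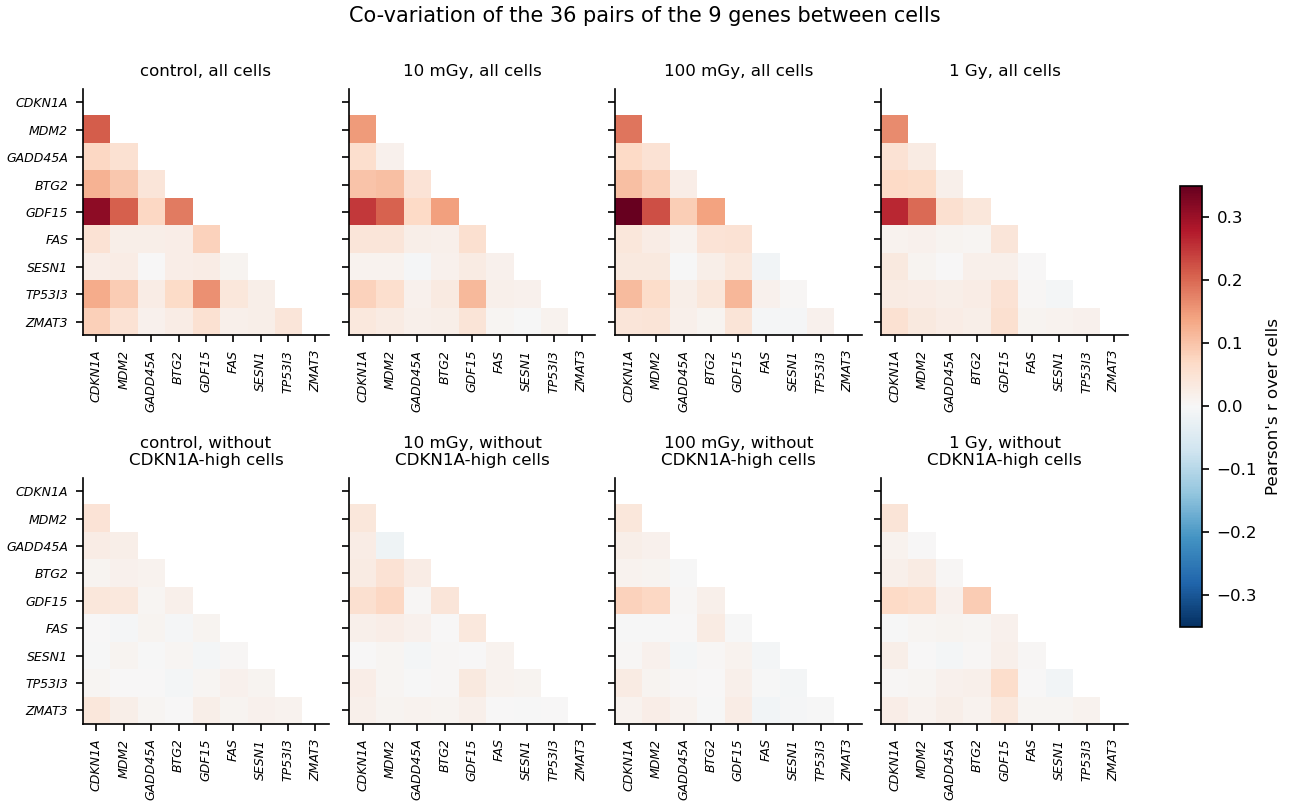
Pearson's r over cells (colour) for the 36 pairs of the 9 genes in each library, in all cells thinned to 5000 UMIs (top row) and without cells of at least 5 CDKN1A UMIs (bottom row). The pairs among CDKN1A, MDM2 and GDF15 are darkest in the top row, between 0.15 and 0.35, and the highest r of any pair in the bottom row is 0.0897.

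The median correlation was lower when the few cells with high CDKN1A were left out, but not that of every pair. Cells with at least 5 CDKN1A UMIs after thinning, a minimum set after the values were seen, numbered 31 of 9060 in the control (0.342%, interval 0.233% to 0.485%), 28 at 10 mGy (0.223%, 0.148% to 0.322%), 42 at 100 mGy (0.294%, 0.212% to 0.398%) and 26 at 1 Gy (0.225%, 0.147% to 0.330%). The control had the highest share, and the intervals of all libraries overlapped. These cells held 28.7%, 14.4%, 23.1% and 19.7% of the CDKN1A UMIs of their library. Without them the r of CDKN1A and MDM2 was 0.05, 0.04, 0.04 and 0.05, the median over the 36 pairs was 0.009, 0.012, 0.007 and 0.013, and the CDKN1A variance over mean was 1.17, 1.18, 1.13 and 1.12. Leaving out cells by their CDKN1A count in itself lowers the CDKN1A variance and the r of CDKN1A. For MDM2 and GDF15, which did not choose the cells, the r without them was 0.0376, 0.0714, 0.0719 and 0.0625. The r was higher without these cells in 0, 0, 2 and 4 of the 36 pairs, with the largest rise for BTG2 and GDF15 at 1 Gy, from 0.0395 to 0.0897. Their median depth was 24578 UMIs against 21657 in all thinned control cells, 18555 against 19947 at 10 mGy, 16391 against 15214 at 100 mGy and 17751 against 16448 at 1 Gy. Doublets were kept, and no doublet caller was run.

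In cells grouped by their CDKN1A UMIs, MDM2 and GDF15 were highest in the top group in every library. MDM2 in the control stood at 52.6 CPM in cells with no CDKN1A UMI, 60.4 CPM with 1, 85.7 CPM with 2, 390 CPM with 3 to 4, 1444 CPM with 5 to 9 and 3277 CPM with 10 or more. At 1 Gy the same groups stood at 49.3, 53.1, 110, 612, 1300 and 2700 CPM. Between 0 and 1 CDKN1A UMI the MDM2 intervals did not overlap at 100 mGy, the exception among the libraries (24.2 to 26.7 CPM against 27.3 to 36.7 CPM). At 10 mGy and 100 mGy MDM2 began lower, at 27.6 and 25.4 CPM, and reached 1850 and 1611 CPM in the top group, so the lower MDM2 level of the low doses was seen in cells without CDKN1A and in the top group alike. GDF15 was at 0.146, 0.545, 0.293 and 0.0967 CPM in cells with no CDKN1A UMI, in the order control, 10 mGy, 100 mGy and 1 Gy, and at 369, 600, 484 and 357 CPM in the top group. The top group held only 12 to 19 cells in a library, and the intervals cover counting error but not the spread between cells.

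**Figure D4:**
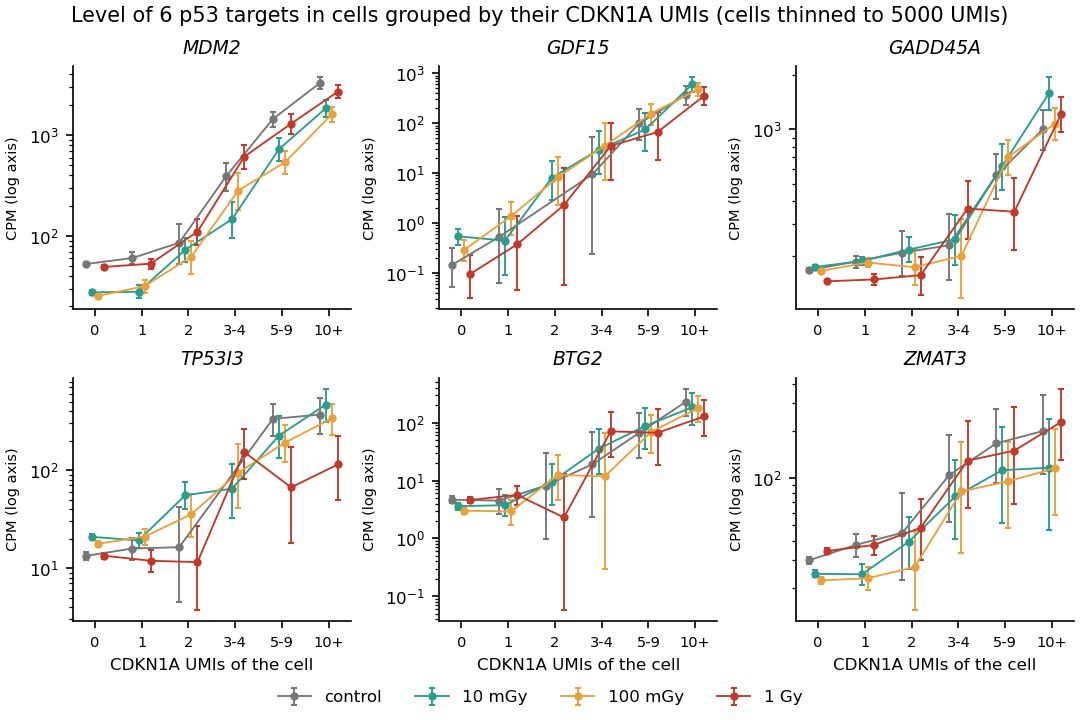
Level in CPM (vertical log axis) of MDM2, GDF15, GADD45A, TP53I3, BTG2 and ZMAT3 in cells thinned to 5000 UMIs and grouped by their own CDKN1A UMIs (horizontal axis), 1 line per library, with exact 95% Poisson intervals; groups with no UMI of the gene are not drawn. MDM2 in the control runs from 52.6 CPM in cells without CDKN1A to 3277 CPM in cells with 10 or more, and GDF15 spans the widest range.

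All 8 other genes were over 2-fold higher in CDKN1A-high cells than in cells with no CDKN1A UMI in each of the 4 libraries, where 5.30% to 6.32% of all genes of at least 10 CPM were. For MDM2 the levels were 2213 against 52.6 CPM in the control, 1207 against 27.6 CPM at 10 mGy, 1024 against 25.4 CPM at 100 mGy and 2054 against 49.3 CPM at 1 Gy. The MDM2 ratio thus lay between 40.3 and 43.7 in the 4 libraries, but it depends on the minimum, with 22.7 to 31.9 at a minimum of 3 CDKN1A UMIs and 54.8 to 67.0 at 10. GADD45A stood at 742 against 167 CPM, 1036 against 174 CPM, 871 against 165 CPM and 815 against 145 CPM, a ratio of 4.45 to 5.97. BTG2 was 29.1-fold, 35.6-fold, 39.5-fold and 21.7-fold higher. TP53I3 was 26.2-fold higher in the control, 15.8-fold at 10 mGy, 14.5-fold at 100 mGy and 6.91-fold at 1 Gy, where it rested on 12 UMIs. ZMAT3 was 4.66-fold to 6.04-fold higher. FAS and SESN1 had only 3 to 14 UMIs in these cells, and their intervals overlapped those of cells without CDKN1A for SESN1 at 10 mGy (21.4 CPM, 4.42 to 62.6 CPM, against 4.47 CPM) and for FAS at 1 Gy (30.8 CPM, 8.38 to 78.8 CPM, against 9.58 CPM). GDF15 differed most: 33, 42, 64 and 29 UMIs lay in the high cells and 6, 30, 19 and 5 in the 8201, 11013, 12951 and 10338 cells without CDKN1A. With a minimum of 3 or of 10 CDKN1A UMIs in place of 5, all 8 genes were again over 2-fold higher in each library, beside 2.19% to 3.89% and 8.73% to 11.8% of all genes of at least 10 CPM. The cells of a higher minimum are among those of a lower one. BTG2, GDF15, FAS and SESN1 lie below the 10 CPM of that background, so it leaves out genes as rare as these. At a minimum of 10, SESN1 rested on only 2 to 5 UMIs in a library.

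Most other p53 targets, taken from lists of known targets, were higher in the same cells. These lists were chosen with earlier results of these data known, so the counts are given as a description. Of the 36 listed, the 34 or 35 with more than a few UMIs in cells with no CDKN1A UMI were compared in a library. In CDKN1A-high cells 30 of 34 were over 2-fold higher in the control, 27 of 34 at 10 mGy, 28 of 35 at 100 mGy and 22 of 34 at 1 Gy, where 5.71%, 6.32%, 5.52% and 5.30% of all genes of at least 10 CPM were. The median ratio was 3.76, 3.31, 3.20 and 2.54, beside 0.942, 0.921, 0.9504 and 0.933 over all genes. FDXR, a mitochondrial ferredoxin reductase, stood at 310 against 11.4 CPM in the control and at 185 against 11.5 CPM at 1 Gy. RPS27L, a p53-induced ribosomal protein paralog, stood at 1465 against 394 CPM in the control and 1331 against 422 CPM at 1 Gy. In a list of 17 regulators of p53, among them kinases and ubiquitin ligases, 1, 2, 2 and 1 were over 2-fold higher, where 1 gene of 17 is 5.88%, and the median ratio was 1.00, 1.09, 1.024 and 0.871. Summed over 26 G2/M genes the ratio was 0.653, 0.547, 0.616 and 0.768, and over 22 S phase genes 0.808, 0.812, 0.937 and 0.825.

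**Figure D5:**
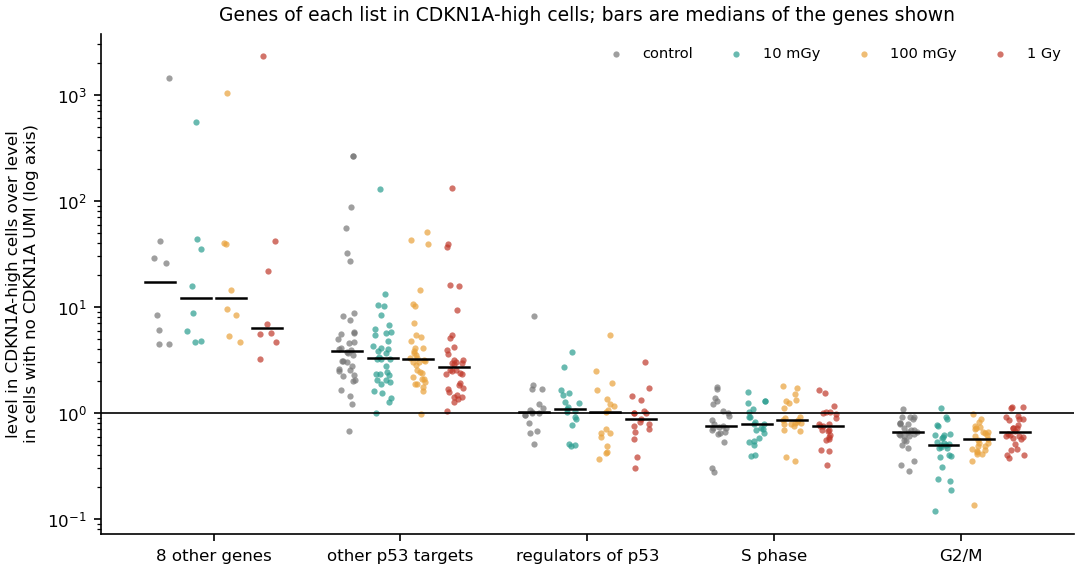
Ratio of the level in CDKN1A-high cells (at least 5 CDKN1A UMIs) to the level in cells with no CDKN1A UMI (vertical log axis) for the genes of 5 lists (horizontal axis); points are genes with a UMI on both sides, colours are libraries, black bars are medians of the genes drawn and the line marks equal levels. The 8 other genes and the other p53 targets lie mostly above the line in each library, the regulators around it and the G2/M genes mostly below.

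Along the cell cycle the differences were small. The r of CDKN1A with the summed UMIs of the G2/M list was -0.09, -0.09, -0.08 and -0.07, and that of GADD45A was -0.12, -0.07, -0.10 and -0.11. GADD45A also had an r of 0.06 to 0.08 with the S phase list. MDM2 had an r of 0.01 to 0.03 with the G2/M list. ZMAT3, GDF15, TP53I3 and BTG2 had a negative r with the G2/M list in all 4 libraries, between -0.05 and -0.01, and FAS and SESN1 lay between -0.02 and 0.01. With the S phase list these 6 genes lay between -0.01 and 0.04. Values of this size in sparse counts are given as a description only, as is the median r of the 36 pairs.

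The genes most like GADD45A over the cells, by mean r over the 4 libraries among genes of at least 50 CPM, were CCN1 (0.09), IER3 (0.08), CCN2 (0.08), KLF6 (0.08) and HIST1H4C (0.08). CCN1, CCN2, IER3 and KLF6 are immediate early or growth factor responsive genes, and HIST1H4C is a histone gene. CDKN1A and MDM2 averaged 27.2 and 43.2 CPM, below the 50 CPM required for this comparison, and the genes most like them are given for completeness. For CDKN1A, besides GADD45A itself, they were the long noncoding RNA NEAT1 (0.06), RPS27L (0.06) and SAT1 (0.06), a polyamine-degrading enzyme. For MDM2 they were SAT1 (0.04), MALAT1 (0.04) and, after GADD45A, GAS5 (0.03).

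Upstream of the 9 genes, 14 of 17 listed regulators of p53 reached 10 CPM. Of these, 1 was over 1.2-fold higher and 10 lower at 10 mGy, 1 was higher and 11 lower at 100 mGy, and 0 were over 1.2-fold from the control in either direction at 1 Gy. With median ratio scaling 3 were higher and 9 lower at 10 mGy, 3 and 8 at 100 mGy, and again 0 at 1 Gy, where the same scaling gave 2665 higher and 2410 lower of all 8513 genes at 10 mGy and 2683 and 2449 at 100 mGy. Before that scaling the higher one at both low doses was RPL11, a ribosomal protein that binds MDM2, with log2 ratios of 0.58, 0.87 and 0.14. Ribosomal protein genes together also took more of the UMIs at the low doses, 19.97% and 21.8% against 13.9% in the control, so the rise was not particular to RPL11. The kinase gene HIPK2, which phosphorylates p53, had -1.22, -1.53 and 0.01, and ATM had -0.87, -0.96 and -0.08. Long genes were lower at the low doses, with a Spearman's rho of -0.569 and -0.575 between ratio and exonic length over 8505 genes. The part of length in the ratios of these regulators was not tested. For comparison, before that scaling 16.1% and 13.9% of all genes were higher and 54.2% and 58.7% lower at the low doses. At 1 Gy only 1.61% of all genes were higher and 1.3% lower, and with the scaling 129 and 118 of the 8513.

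Of the 36 other targets, 29 were at 10 CPM or more. Of these, 6 were over 1.2-fold higher and 13 lower at 10 mGy, 3 and 19 at 100 mGy, and 0 and 1 at 1 Gy, beside 16.1% higher and 54.2% lower, 13.9% and 58.7%, and 1.61% and 1.3% of all genes. Their median log2 ratio was -0.24, -0.37 and 0.02, and with median ratio scaling 10 were higher and 9 lower at 10 mGy, 9 and 7 at 100 mGy, and 0 and 1 at 1 Gy. These counts stand beside the 2665 and 2410, 2683 and 2449, and 129 and 118 of 8513 genes under that scaling. At 1 Gy the gene called lower was PLK2, a polo-like kinase, at 342 CPM in the control and 278 CPM at 1 Gy, a log2 ratio of -0.30. Of 9 arrest and feedback genes, 2 were higher and 4 lower at 10 mGy, 1 and 7 at 100 mGy, and 0 and 1 at 1 Gy, and among them RPS27L had 0.98, 0.67 and 0.21. Of 10 cell death genes, 2 were higher and 4 lower at 10 mGy, 2 and 5 at 100 mGy, and 0 at 1 Gy. Among these BAX, the mitochondrial pore-forming protein, had 0.30, 0.30 and 0.09, and the death receptor gene TNFRSF10A had -0.81, -0.87 and 0.02. Of 10 repair and metabolism genes, 2 were higher and 5 lower at 10 mGy, 0 and 7 at 100 mGy, and 0 at 1 Gy. Among these PCNA, the replication clamp, had 0.58, 0.07 and 0.00, and SESN2 had -0.67, -0.85 and 0.24, the highest of the 29 at 1 Gy. Ribosomal protein genes took 13.9%, 19.97%, 21.8% and 14.0% of UMIs, higher at both low doses. Mitochondrially encoded genes took 5.91%, 4.55%, 4.40% and 5.78% of UMIs, and the median number of genes per barcode was 5447, 4035, 3702 and 4652, both lower at the low doses. The part of these measures in the low-dose ratios was not tested.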

How the data were processed

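BEAS-2B cells were profiled by droplet single-cell RNA sequencing in 4 libraries, 1 per dose, grouped by the sample labels. Raw UMI counts, as deposited, had no normalization applied and were made with Cell Ranger 7.0.1 per the file headers. The submitters' notes also name STAR and GRCh37. Annotation, intron counting and cell calling: not given in the sources used here. Depth was 211752280 to 285806026 UMIs per library.

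All barcodes were used. UMIs were scaled per barcode and averaged (CPM). A gene was called when over 1.2-fold from the control. Intervals are exact at 95% and cover counting error only; with 1 library per dose and cells that are not replicates, no test was made. Detection and co-variation used cells thinned to 5000 UMIs. The background was 8513 genes of at least 10 CPM. Exonic lengths came from GENCODE 29 (99.9% matched by identifier), gene positions from the same release on GRCh38, and promoter windows from RefSeq. The 9 genes and the lists were chosen with earlier results of these data known, and 1 gene of the lists is not reported here. Named genes were the 9, any listed gene, and for members of at least 50 CPM the 5 most correlated genes of at least 50 CPM. The rule set 8 genes for CDKN1A and MDM2, but both lie below 50 CPM. The first 4 named as most like each of them fall outside that rule and were chosen after their values were seen. By GENCODE 29, MDM2 overlaps 2 other genes on its strand, and GDF15, FAS and SESN1 overlap 1 small RNA gene each, so UMIs in the shared stretches are uncertain. Opposite-strand genes overlap CDKN1A, MDM2, FAS, SESN1 and TP53I3. Alternatives were other scalings, other choices of barcodes, thinning to 1500 UMIs, a 1.5-fold threshold, other floors and other correlations. Leaving out CDKN1A-high cells, and minimums of 3 and 10 CDKN1A UMIs, were added after the data were seen. The ratios, the thinning and the correlation were tested on simulated data. Scripts ran in Python 3.11.15 with pandas 2.3.3, matplotlib 3.10.9, scipy 1.17.1 and numpy 2.4.6.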

Additional observations from a re-analysis of the deposited data

How the results depend on the processing

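The median log2 ratio of the 9 genes at 10 mGy, -0.46 as reported, was -0.14 with median ratio scaling, -0.35 from pooled CPM, -0.37 without ribosomal protein and mitochondrially encoded genes in the total, -0.34 without low-UMI barcodes, -0.085 after thinning to 1500 UMIs, -0.27 after thinning to 5000 UMIs and -0.26 when CDKN1A-high cells were also left out. At 100 mGy, -0.38 became -0.000377 with median ratio scaling, -0.26 without those genes in the total and -0.19 after thinning to 1500 UMIs. With median ratio scaling 4 genes were higher and 3 lower at 10 mGy, and 3 lower at 100 mGy. At a threshold of 1.5-fold, 3 were lower at each low dose, 0 higher at 100 mGy and 0 lower at 1 Gy. After thinning to 1500 UMIs 1 was higher at 100 mGy, and 1 was higher and 2 lower at 1 Gy. At that depth GDF15 had a UMI in only 12 cells of the control and 8 cells at 1 Gy. The share of all genes called was not computed for thinned counts at either depth, so these counts of genes have no background. After thinning to 5000 UMIs without CDKN1A-high cells, chosen after seeing the data, 0 were lower at 1 Gy; for GDF15, the gene concerned, 72.5% of the thinned UMIs at 1 Gy and 78.6% in the control lay in the cells left out, so the value without them rests on few counts. The share of all genes over 1.2-fold at 1 Gy, 2.91%, was 7.89% for genes of at least 1 CPM and 34.9% for genes with a UMI in every library.

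The r of CDKN1A and MDM2, from the control to 1 Gy, was 0.63, 0.45, 0.49 and 0.55 without the log, 0.26, 0.20, 0.22 and 0.20 after scaling to 10000 UMIs without low-UMI barcodes, 0.0467, 0.0391, 0.0484 and 0.0367 by Spearman rank, and 0.0468, 0.0392, 0.0403 and 0.0454 without CDKN1A-high cells. After thinning to 1500 UMIs it was 0.17, 0.078, 0.16 and 0.15. The causes of these shifts were not tested. Of the other values, which are ratios and detection shares of single genes and the median r of the 36 pairs, 235 moved beyond their counting interval or, for r, beyond the sampling error set by the number of cells, and 109 did not, and no log2 ratio past 1.2-fold changed sign. Among those that moved were all 36 detection shares over all barcodes without thinning, and all 36 without low-UMI barcodes. A detection share changes with depth by itself, so these moves were fixed in advance. Detection shares over 1.2-fold above the control after thinning to 5000 UMIs lay below it over all barcodes for CDKN1A at 10 mGy (24.4% against 28.1%), TP53I3 at 100 mGy (18.4% against 21.2%) and GDF15 at 100 mGy (0.531% against 0.594%), where depth differs between libraries. No library could be left out, since each dose has 1. No paired analysis was possible because each dose has 1 library and no test was made. Depth limits GDF15, BTG2, FAS and SESN1 most.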
